A study of Mus musculus with 10 samples.

Results

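Cytochromes P450 are haem enzymes of the endoplasmic reticulum that add oxygen to drugs, steroids, fatty acids and vitamins, and the hepatic forms of families 1 to 3 carry much of the oxidation of foreign compounds. The P450 genes described here were those whose symbol names family 1, 2, 3, 4, 17, 26 or 39, without Cyp4a10 and Cyp4a14. P450 oxidoreductase (Por), their shared electron donor, belonged to the same set, but no probe set carried that symbol alone and it was not analysed here. A probe set is the group of short array probes that reads 1 transcript. Where a gene had several, the brightest by mean value was taken, and genes whose mean reached 5 log2 were kept. This gave 43 genes of the 59 matched by symbol, out of 18193 genes with a probe set of 1 symbol and 9435 that reached the same floor. Just inside the floor stood Cyp4f16 (mean 5.43) and Cyp4a31 (5.46), and just outside it Cyp1b1 (4.14) and Cyp2d40 (4.13). In none of the 43 did the mean of a diet lie below the floor.

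The livers came from lactating mice of the QSi5 strain, with 1 expression array for each of 10 mice. The food of the 5 HGI mice had a high glycaemic index, held 51.4% glucose and carried 15.6 MJ/kg. The food of the 5 LGI mice had a low glycaemic index, held 51.4% of an amylose-rich starch in its place and carried 16.3 MJ/kg. Both diets ran from pregnancy to peak lactation, when the livers were taken. The labels give a positive energy balance for all HGI mice and a negative one for all LGI mice, so diet and energy balance cannot be told apart. All values are the deposited log2 expression values, and all differences are HGI minus LGI. A gene is said to have risen or fallen where limma's adjusted p, taken over all 45037 probe sets, was under 0.05. Before any comparison, 2 arrays stood apart: LGI 4 and HGI 1 had the lowest mean correlation with the other arrays of their diet (0.988 and 0.989, against 0.991 to 0.993), and the values of HGI 1 spread least (SD 2.16, against 2.26 to 2.31). The counts below are therefore also given without them, and the calls were repeated with single arrays left out. For the counts of differences below 0, of an unadjusted p under 0.05 and of groups apart, leaving them out was added after seeing the data.

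Transcription of many hepatic P450 genes is set by ligand-activated receptors. The constitutive androstane receptor (CAR, Nr1i3) and the pregnane X receptor (PXR, Nr1i2) act on Cyp2b, Cyp2c and Cyp3a genes, and the aryl hydrocarbon receptor (Ahr) acts on Cyp1 genes. In the mouse the pulse pattern of growth hormone makes some forms predominate in males, such as Cyp2d9, and others in females, such as Cyp2b9 and Cyp3a16. Subfamily members lie in gene clusters, and close paralogues can have nearly the same sequence before the start of transcription. Of the 43 genes, 34 had an entry in the RefSeq promoter table (GRCm38.p6). The 150 bases before the annotated start are printed for 3 pairs of paralogues with unlike values here, so that the sequences can be set beside the differences. Capitals mark exact matches to TATAAA (the sequence of the TATA box), AGGTCA (the hexamer bound by nuclear receptors) and CAAAGTCCA (a form of the HNF4 site), searched on both strands.
Cyp2d9 (chr15:82452227-82452376, plus strand): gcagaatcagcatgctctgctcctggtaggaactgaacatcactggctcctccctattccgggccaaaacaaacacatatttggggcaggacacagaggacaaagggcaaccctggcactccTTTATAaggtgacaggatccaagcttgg
Cyp2d10 (chr15:82407195-82407344, minus strand): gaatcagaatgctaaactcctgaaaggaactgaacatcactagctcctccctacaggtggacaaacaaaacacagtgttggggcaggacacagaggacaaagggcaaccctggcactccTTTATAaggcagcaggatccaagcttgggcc
Cyp2b9 (chr7:26173259-26173408, plus strand): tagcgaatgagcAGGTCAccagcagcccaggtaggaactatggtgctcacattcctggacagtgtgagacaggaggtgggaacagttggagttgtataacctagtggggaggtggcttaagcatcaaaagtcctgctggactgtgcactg
Cyp2b13 (chr7:26061345-26061494, plus strand): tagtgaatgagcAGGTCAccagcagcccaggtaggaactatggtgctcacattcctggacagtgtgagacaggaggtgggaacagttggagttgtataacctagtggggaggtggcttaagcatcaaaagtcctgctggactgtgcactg
Cyp3a11 (chr5:145879855-145880004, minus strand): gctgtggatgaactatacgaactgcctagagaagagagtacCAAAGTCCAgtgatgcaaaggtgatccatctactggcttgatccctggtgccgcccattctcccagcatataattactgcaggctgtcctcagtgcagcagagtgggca
Cyp3a16 (chr5:145469724-145469873, minus strand): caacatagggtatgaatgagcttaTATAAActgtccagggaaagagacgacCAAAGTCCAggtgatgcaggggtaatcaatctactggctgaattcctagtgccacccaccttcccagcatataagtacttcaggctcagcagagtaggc

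Aligned end to end, Cyp2d9 and Cyp2d10 shared 128 of 150 bases, Cyp2b9 and Cyp2b13 shared 149, and Cyp3a11 and Cyp3a16 shared 113. Both Cyp2d promoters held an exact TATAAA match on the opposite strand, at position -28 in Cyp2d9 and -31 in Cyp2d10. On the printed strand both read TATAagg across that place, and inexact forms of the motif were not searched. In the 250 bases before the start, TATAAA occurred in 15 of 39 P450 promoters (38.5%) and in 12.4% of all 32851 promoters in the table. AGGTCA occurred in 11 of the 39 (28.2%), against 14.0% of all, and CAAAGTCCA in 4 (Cyp2c68, Cyp2c70, Cyp3a11 and Cyp3a16), against 0.384% of all. Promoters of paralogues are not independent, and a match is not a binding site.

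Over the whole set, P450 values lay mostly lower in HGI livers, but few genes passed the test. Of the 43 genes, 2 fell (4.65%) and 0 rose. Among all probe sets 0.0644% were called (0.0266% lower and 0.0377% higher in HGI), and among the 9435 genes at the floor 0.138% (0.0742% lower and 0.0636% higher). The genes that fell were Cyp2d9 and Cyp2c54. The median difference was -0.20 over the 43 genes and -0.04 over all genes at the floor. Differences lay below 0 for 31 of the 43 (72.1%), against 59.5% of all genes at the floor. At an unadjusted p under 0.05, 17 were lower (39.5%, against 8.67% of all genes at the floor) and 2 were higher (4.65%, against 3.93%). All HGI mice lay below all LGI mice for 6 genes (14.0%, against 2.48%). All HGI mice lay above all LGI mice for 0 of the 43 (against 0.647%). Below the floor, Cyp2d40 did lie higher in all HGI mice, and its values are given with the Cyp2d genes. Over 2-fold lower in HGI were 4 genes, Cyp2d9, Cyp2c54, Cyp2b9 and Cyp3a11, against 0.286% of all genes at the floor. Without HGI 1, 28 differences lay below 0 (65.1%, against 47.7%) and 11 were lower at an unadjusted p under 0.05 (25.6%, against 5.69%). The groups were then apart for 6 genes (14.0%, against 2.73%). Without LGI 4, 37 lay below 0 (86.0%, against 60.5%), 19 were lower at that p (44.2%, against 8.30%), and the groups were apart for 11 genes (25.6%, against 4.14%).

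**Figure D1:**
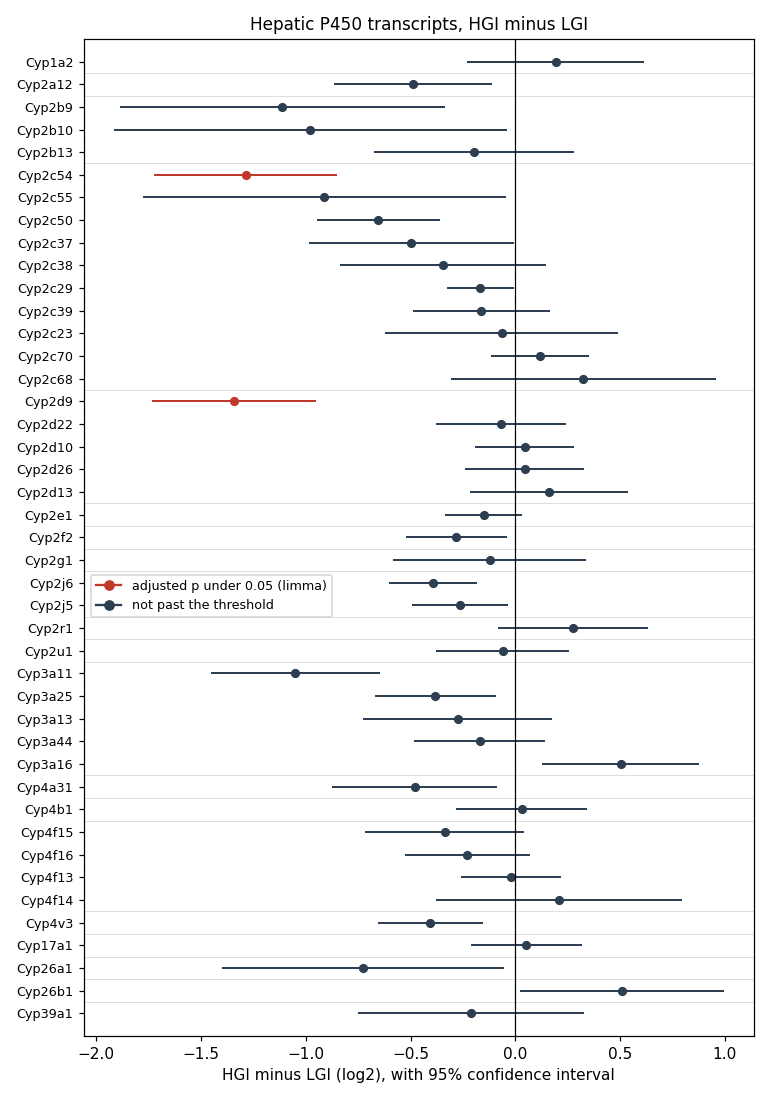
Difference HGI minus LGI in log2 (x axis) for the 43 P450 genes (y axis, by subfamily), with points for limma's estimates and lines for 95% confidence intervals (n = 5 mice per diet). The 2 genes past the threshold, Cyp2d9 and Cyp2c54, are red, and 31 of the 43 points lie left of 0.

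Cyp2d9 had the largest difference of the 43 genes. It is a steroid hydroxylase that predominates in male mouse liver. Its values were 6.14, 6.24, 6.82, 6.39 and 6.02 log2 in HGI mice 1 to 5, against 7.91, 8.04, 7.44, 7.14 and 7.80 in LGI mice 1 to 5. The highest HGI mouse lay below the lowest LGI mouse. Cyp2d9 averaged 6.32 ± 0.31 in HGI and 7.67 ± 0.37 in LGI (SD, n = 5 each), 2.54-fold lower in HGI (difference -1.34 ± 0.18 SE, adjusted p = 0.0211). The probe set has an _a_at ending, by which the array's maker marks probes shared by transcripts of 1 gene.

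The other 4 Cyp2d genes kept, which lie with Cyp2d9 on chromosome 15, had differences between -0.07 and 0.16. Cyp2d10, whose promoter is printed above beside that of Cyp2d9, stood at 0.04 (95% interval -0.19 to 0.27, adjusted p = 0.964), with HGI mice at 12.71, 12.96, 12.91, 12.84 and 12.81 and LGI mice at 12.90, 12.90, 12.93, 12.40 and 12.88. Cyp2d26 stood at 0.04, Cyp2d22 at -0.07 and Cyp2d13 at 0.16 (adjusted p between 0.895 and 0.969). Without LGI 4, Cyp2d10 turned to -0.06 and Cyp2d26 to -0.07, and Cyp2d13 stood at 0.05 and Cyp2d22 at -0.20. The subfamily median was 0.04, and -0.07 without LGI 4. Cyp2d40, which lay below the floor, averaged 4.49 in HGI and 3.77 in LGI. All its HGI values lay above all its LGI values (difference 0.72), and it did not pass (adjusted p = 0.0700). No test of the difference between paralogues was made.

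Cyp2c54 fell too, one of 10 Cyp2c genes kept, all on chromosome 19. Cyp2c enzymes oxidise drugs and turn arachidonic acid into epoxides. Cyp2c54 read 9.0, 10.40, 9.88, 9.72 and 9.50 in HGI mice 1 to 5, against 10.97, 11.10, 10.97, 10.71 and 11.19 in LGI mice 1 to 5. The groups did not overlap, and the HGI mice were more spread. The means were 9.70 ± 0.51 in HGI and 10.99 ± 0.18 in LGI (SD, n = 5 each), 2.44-fold lower in HGI (difference -1.29 ± 0.20 SE, adjusted p = 0.0433).

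Both calls were lost without some single mice, with little change in size. Leaving out 1 array at a time, the Cyp2d9 difference stayed between -1.48 and -1.25 and that of Cyp2c54 between -1.46 and -1.11. Neither gene passed without HGI 4, HGI 5, LGI 2, LGI 3 or LGI 5, where adjusted p lay between 0.0507 and 0.0868 for Cyp2d9 and between 0.120 and 0.159 for Cyp2c54. Cyp2c54 did not pass without LGI 1 either (adjusted p = 0.0937), nor with arrays centred on their medians (0.0527).

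Cyp2c50 followed Cyp2c54 within the subfamily. Its values were 10.82, 11.54, 11.18, 11.47 and 11.04 in HGI mice 1 to 5, against 11.97, 11.88, 12.01, 11.61 and 11.86 in LGI mice 1 to 5. All HGI mice lay below all LGI mice, with a difference of -0.65 ± 0.13 SE that did not pass (adjusted p = 0.137). Cyp2c29 stood at -0.17 (13.73 ± 0.08 in HGI and 13.90 ± 0.06 in LGI, SD, n = 5 each; adjusted p = 0.630). Cyp2c37 stood at -0.50, Cyp2c38 at -0.34, Cyp2c39 at -0.16 and Cyp2c23 at -0.07 (adjusted p between 0.655 and 0.978). Without LGI 4, Cyp2c38 stood at -0.59, Cyp2c39 at -0.30 and Cyp2c23 at -0.34. Cyp2c70, which makes muricholic acids from bile acids in the mouse, stood at 0.12 (adjusted p = 0.871). Leaving out LGI 4 gave 0.03. The subfamily median was -0.26, with 8 of 10 differences below 0, 1 gene called lower and 0 higher. Probes for Cyp2c paralogues may read each other's transcripts, and the files hold no probe sequences to check it.

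Cyp2c55 and Cyp2c68 had the largest distances of LGI 4 from the other LGI mice. Cyp2c55 read 5.34, 5.31, 5.63, 5.59 and 5.21 in HGI mice 1 to 5, against 6.04, 5.97, 5.68, 8.30 and 5.64 in LGI mice 1 to 5. LGI 4 lay far above the rest, and the difference of -0.91 (adjusted p = 0.637) became -0.42 without it. Cyp2c68 read between 12.86 and 13.18 in HGI, against 13.15, 12.96, 13.11, 11.25 and 12.96 in LGI mice 1 to 5. There LGI 4 lay far below the rest, and the difference of 0.32 became -0.03 without it.

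The Cyp2b genes on chromosome 7 had a subfamily median of -0.98 over 3 genes, and 0 of them passed. The median was -0.76 without LGI 4 and -0.51 without LGI 4 and HGI 1. Cyp2b9, a form that predominates in females, read 7.67, 9.27, 7.20, 8.74 and 8.20 in HGI mice 1 to 5, against 9.18, 10.09, 9.45, 8.48 and 9.45 in LGI mice 1 to 5. HGI 2 and HGI 4 lay within the LGI range. The difference was -1.11 ± 0.36 SE (adjusted p = 0.459), and -1.33 without LGI 4. Cyp2b10, the form most often read as a sign of CAR activity, ran from 8.83 to 11.33 in HGI (median 9.60), against 9.65 to 11.66 in LGI (median 10.96). The difference of -0.98 did not pass (adjusted p = 0.643), and it was -0.76 without LGI 4. Its further probe sets gave -1.06 (adjusted p = 0.618) and -0.98 (0.655). Cyp2b13, whose printed promoter differs from that of Cyp2b9 at 1 of 150 bases, stood at -0.20 (95% interval -0.67 to 0.27, adjusted p = 0.903), and at -0.42 without LGI 4.

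Cyp3a genes on chromosome 5 differed in sign. Cyp3a11, the main drug-metabolising P450 under PXR in the mouse, read 11.84, 12.60, 12.83, 12.45 and 11.81 in HGI mice 1 to 5, against 13.51, 13.30, 13.16, 13.60 and 13.20 in LGI mice 1 to 5. The groups did not overlap. It was 2.07-fold lower in HGI (difference -1.05 ± 0.19 SE), just short of the threshold (adjusted p = 0.0700). It passed with the arrays quantile normalised again (0.0423), with 1 probe set per gene in the fit (0.0463) and without HGI 3 (0.0347).

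Cyp3a16, a form of fetal and female mouse liver, lay the other way. Its values were 8.61, 8.97, 8.85, 9.39 and 8.78 in HGI mice 1 to 5, against 8.58, 8.28, 8.69, 7.87 and 8.67 in LGI mice 1 to 5. HGI 1 alone lay within the LGI range, and the difference of 0.50 ± 0.17 SE did not pass (adjusted p = 0.497). Cyp3a25 read 11.49, 12.10, 12.30, 12.13 and 11.84 in HGI mice 1 to 5, against 12.49, 12.39, 12.33, 12.28 and 12.28 in LGI mice 1 to 5. HGI 3 alone reached the LGI range (difference -0.38 ± 0.13 SE, adjusted p = 0.498). Cyp3a13 stood at -0.28 (adjusted p = 0.828). Leaving out LGI 4 gave -0.04. Cyp3a44 stood at -0.17 (adjusted p = 0.849). The subfamily median was -0.28, with 0 of 5 genes past the threshold. It was -0.13 without LGI 4 and -0.08 without LGI 4 and HGI 1.

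**Figure D2:**
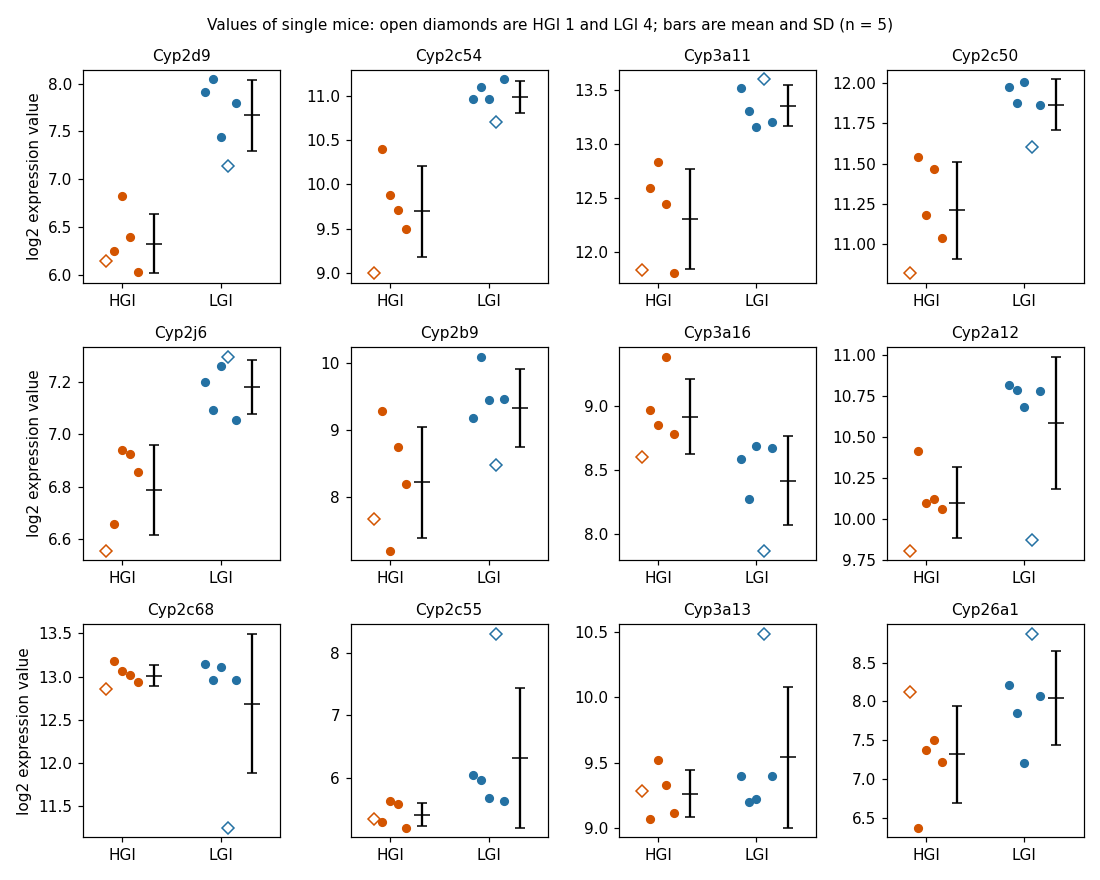
Log2 expression value (y axes, a separate scale for each gene) of every mouse for 12 P450 genes, HGI left and LGI right. Open diamonds are HGI 1 and LGI 4, and bars give the mean and SD of 5 mice. HGI and LGI are apart for Cyp2d9, Cyp2c54, Cyp3a11, Cyp2c50, Cyp2j6 and Cyp2c55, while LGI 4 stands alone in Cyp2c68, Cyp2c55 and Cyp3a13.

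The remaining drug-metabolising forms did not pass with all 10 arrays. Cyp2a12, a testosterone hydroxylase, read 9.81, 10.42, 10.10, 10.12 and 10.06 in HGI mice 1 to 5, against 10.82, 10.79, 10.68, 9.87 and 10.78 in LGI mice 1 to 5. The HGI mice all lay below 4 of the LGI mice, and LGI 4 lay among them. The difference was -0.49 (adjusted p = 0.509) and became -0.67 without LGI 4, where it passed (adjusted p = 0.0496). Cyp2f2, which activates naphthalene, read 12.71, 13.01, 13.11, 12.94 and 12.66 in HGI mice 1 to 5, against 13.35, 13.18, 13.23, 12.91 and 13.18 in LGI mice 1 to 5. LGI 4 was again the low LGI mouse (difference -0.28, adjusted p = 0.569).

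Cyp2e1, which oxidises ethanol and acetone, read 13.23, 13.40, 13.35, 13.22 and 13.14 in HGI mice 1 to 5, against 13.39, 13.45, 13.41, 13.28 and 13.56 in LGI mice 1 to 5. HGI 2, HGI 3, LGI 1 and LGI 4 lay in the stretch that the ranges share (difference -0.15, 95% interval -0.33 to 0.03, adjusted p = 0.726). Cyp1a2, the hepatic target of Ahr that oxidises caffeine, read 11.54, 12.11, 11.73, 11.31 and 12.19 in HGI mice 1 to 5, against 11.29, 11.90, 11.66, 11.12 and 11.95 in LGI mice 1 to 5. Most of both ranges was shared (difference 0.19, 95% interval -0.22 to 0.61, adjusted p = 0.886), and the difference was 0.08 without LGI 4. Cyp2g1, known from olfactory tissue, read 7.93, 8.07, 8.51, 8.42 and 8.0 in HGI mice 1 to 5, against 8.12, 8.79, 8.54, 7.50 and 8.61 in LGI mice 1 to 5. LGI 4 was the lowest of all 10 (difference -0.12, adjusted p = 0.946, and -0.32 without it). The dim Ahr targets Cyp1a1 and Cyp1b1 lay below the floor, with differences of -0.0032 and 0.11 (adjusted p = 0.999 and 0.917). Of 3 Ahr targets 0 passed (median 0.11).

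Among P450s of fatty acids and eicosanoids, Cyp2j6 separated the diets. Cyp2j enzymes are epoxygenases of arachidonic acid. Cyp2j6 read 6.56, 6.66, 6.94, 6.92 and 6.86 in HGI mice 1 to 5, against 7.20, 7.09, 7.26, 7.30 and 7.06 in LGI mice 1 to 5, without overlap. The difference of -0.39 ± 0.09 SE did not pass (adjusted p = 0.237), and its other probe set stood at -0.27 (0.422). Cyp2j5 stood at -0.26 and -0.38 at its probe sets (adjusted p = 0.576 and 0.575). Cyp4v3, an omega-hydroxylase of fatty acids, read 9.26, 9.58, 9.73, 9.90 and 9.39 in HGI mice 1 to 5, against 9.85, 10.06, 9.95, 9.98 and 10.04 in LGI mice 1 to 5. HGI 4 alone reached the LGI range (difference -0.41, adjusted p = 0.352), and at the other probe set the groups were apart (-0.38, adjusted p = 0.536).

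Cyp4a31, of the fatty acid omega-hydroxylases, read 5.43, 4.93, 5.04, 5.79 and 4.90 in HGI mice 1 to 5, against 5.57, 5.71, 5.39, 6.18 and 5.64 in LGI mice 1 to 5. HGI 1 and HGI 4 lay within the LGI range (difference -0.48, adjusted p = 0.542). The 4 Cyp4f genes, of a family that inactivates leukotrienes, had a median of -0.12, and 0 passed. Cyp4f15 read 8.98, 9.73, 10.01, 9.52 and 9.45 in HGI mice 1 to 5, against 9.77, 10.10, 9.95, 9.47 and 10.09 in LGI mice 1 to 5. The ranges overlapped, with HGI 1 low (difference -0.34, adjusted p = 0.706). The other Cyp4f genes ran from Cyp4f16 at -0.23 (adjusted p = 0.759) to Cyp4f14 at 0.21 (0.918). Without LGI 4, Cyp4f14 turned to -0.10 and Cyp4f16 stood at -0.11. Cyp4b1 read 5.76, 6.07, 5.95, 5.90 and 5.98 in HGI mice 1 to 5, against 6.26, 5.93, 6.05, 5.33 and 5.95 in LGI mice 1 to 5. Its difference of 0.03 had no stable sign, being -0.07 without HGI 1 and LGI 4. Cyp2u1 read 5.85, 5.49, 5.50, 5.27 and 5.59 in HGI mice 1 to 5, against 5.82, 5.53, 5.79, 5.09 and 5.77 in LGI mice 1 to 5 (difference -0.06, adjusted p = 0.963, and -0.19 without LGI 4).

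Cyp17a1, Cyp39a1, Cyp2r1, Cyp26a1 and Cyp26b1, which act on steroids, vitamin D or retinoids, passed in 0 of 5 cases. The steroid hydroxylase Cyp2d9, given above, is not among these. Cyp17a1, the 17-alpha-hydroxylase of steroid synthesis, read 11.83, 11.73, 11.81, 11.95 and 11.85 in HGI mice 1 to 5, against 11.62, 12.04, 11.83, 11.38 and 12.04 in LGI mice 1 to 5. The HGI mice lay within the LGI range (difference 0.05, 95% interval -0.21 to 0.31, adjusted p = 0.962), and the difference was -0.05 without HGI 1 and LGI 4. Cyp39a1, an oxysterol 7-alpha-hydroxylase, read 6.23, 6.66, 7.57, 7.05 and 6.47 in HGI mice 1 to 5, against 7.27, 6.91, 7.06, 6.32 and 7.49 in LGI mice 1 to 5. The ranges nearly coincided (difference -0.21, adjusted p = 0.907, and -0.39 without LGI 4). Cyp2r1, the vitamin D 25-hydroxylase, read 5.90, 5.94, 6.46, 6.67 and 6.35 in HGI mice 1 to 5, against 6.08, 6.29, 6.11, 5.57 and 5.88 in LGI mice 1 to 5. HGI 3, HGI 4 and HGI 5 lay above all LGI mice (difference 0.28, adjusted p = 0.759, and 0.17 without LGI 4).

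The enzymes that break down retinoic acid had opposite signs, and neither passed. Cyp26a1, itself induced by retinoic acid, read 8.11, 6.37, 7.37, 7.50 and 7.22 in HGI mice 1 to 5, against 8.22, 7.85, 7.20, 8.87 and 8.07 in LGI mice 1 to 5. HGI 2 was the lowest of all and LGI 4 the highest (difference -0.73 ± 0.31 SE, adjusted p = 0.624). Cyp26b1 read 6.05, 6.25, 5.70, 6.17 and 5.87 in HGI mice 1 to 5, against 4.88, 5.31, 5.13, 6.27 and 5.90 in LGI mice 1 to 5. LGI 1, LGI 2 and LGI 3 lay below every HGI mouse (difference 0.51 ± 0.22 SE, adjusted p = 0.635).

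Probe sets that carry several symbols were outside the set. Of 4 such probe sets 0 passed. The one shared by Cyp4a31 and Cyp4a10 stood at -0.95 (adjusted p = 0.257) and the one shared by Cyp4f37 and Cyp4f16 at -0.49 (0.463). The one shared by Cyp2a5 and Cyp2a4 stood at 0.07 (adjusted p = 0.965) and the one shared by Cyp3a41a and Cyp3a41b at 0.12 (0.885).

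By regulation, a list of CAR and PXR targets held 14 genes. Of these, 12 had a probe set of that symbol alone, and 11 reached the floor. The listed Cyp2a5 had only the probe set shared with Cyp2a4, which stood at 0.07 and is not counted. All 12 counted genes had differences below 0 (median -0.57), against 59.5% of all genes at the floor. The test called 1 lower (Cyp2c54; 0.0742% of all genes at the floor were) and 0 higher, and 11 did not pass. Their mean level lay between 8.58 and 9.15 log2 in HGI mice, against 9.45 to 9.62 in LGI mice. That mean takes in Cyp2c65, which lay below the floor (2.44 log2). The list mean restates the differences of its genes and is no separate result. The list was chosen with earlier results of these data known, and all but 1 of its measured genes are among the 43. It does not hold every Cyp2b, Cyp2c and Cyp3a gene, and Cyp3a16 (0.50), Cyp2c68 (0.32) and Cyp2c70 (0.12), with differences above 0, are not on it. Of 7 female-predominant forms with a probe set of 1 symbol, 0 passed (median -0.20). The listed Cyp2a4, Cyp3a41a and Cyp3a41b had only shared probe sets, at 0.07 for Cyp2a4 and 0.12 for both Cyp3a41 genes. Cyp2b9, Cyp2b10 and Cyp2b13 are on this list and on that of CAR and PXR targets. Of 3 male-predominant forms 1 fell, Cyp2d9 (against 0.0742% of all genes at the floor), while Cyp4a12a (listed at 2.99 in HGI and 2.97 in LGI) lay below the floor. Of 7 pericentral forms, those of hepatocytes around the central vein, 1 fell (Cyp2c54, against 0.0742% of all genes at the floor) and 0 rose (median -0.50). Cyp2c29, Cyp2c37, Cyp2c50, Cyp2c54 and Cyp3a11 are on both this list and that of CAR and PXR targets, so the lists are not independent.

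The receptors themselves stayed short of the threshold. Of 10 measured receptors and partners 0 passed (median -0.02). Nr1i2 (PXR) read 6.12, 6.25, 6.98, 6.56 and 6.14 in HGI mice 1 to 5, against 6.43, 7.03, 6.69, 6.79 and 7.06 in LGI mice 1 to 5, with overlap (difference -0.39 ± 0.17 SE, adjusted p = 0.627). Nr1i3 (CAR) stood at 0.13 (adjusted p = 0.953) and Ahr at 0.14 (0.880), both named for their role and not by p. Of 13 hepatocyte factors 0 passed (median -0.01), with Onecut1 (HNF6), which acts on a female-predominant P450 gene in the rat, at 0.62 (adjusted p = 0.663) and Nr2f2 at -0.29 (0.508).

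Enzymes that serve P450s also stayed short of the threshold. Of 7 electron donors and their partners 0 passed (median -0.12), with 4 below 0 and 3 above. Pgrmc1, a haem-binding partner of P450s, stood at -0.19 (adjusted p = 0.627), Cyb5r3, a cytochrome b5 reductase, at 0.27 (0.770) and Cyb5a, cytochrome b5, at -0.12 (0.796). LGI 4 was the low mouse for Cyb5r3, at 11.13, against 12.10 to 12.14 in the other LGI mice. Of 7 haem synthesis genes 0 passed (median -0.03), with Cpox, coproporphyrinogen oxidase, at -0.23 (adjusted p = 0.721). Alas1, the rate-limiting enzyme of haem synthesis in liver, ran from 9.74 to 12.69 in HGI, against 11.32 to 12.43 in LGI (difference -0.66, adjusted p = 0.794). Of 4 haem breakdown genes 0 passed, with Blvra, a biliverdin reductase, at -0.19 (adjusted p = 0.721; list median -0.11).

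In growth hormone signalling, which sets the sexual pattern of P450s, 0 of 9 genes passed, and for 2 all HGI mice lay above all LGI mice (against 0.647% of all genes at the floor). Socs2, a feedback inhibitor, ran from 8.74 to 9.41 in HGI, against 8.10 to 8.56 in LGI (difference 0.70, adjusted p = 0.107). Ghr, the growth hormone receptor, ran from 11.62 to 12.47 in HGI, against 10.05 to 11.46 in LGI (difference 1.07, adjusted p = 0.196). Cish, another such inhibitor, stood at 0.47 (adjusted p = 0.412). The list median was 0.04. Among 15 measured P450s of other families 0 passed (median -0.06), with Cyp7b1 at -0.45 (adjusted p = 0.590) and Cyp8b1 at 0.56 (0.672).

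Cell markers were set beside these values. Hepatocyte markers showed the labelled tissue, with Alb at 14.69 in HGI and 14.69 in LGI, and their mean level ran from 12.63 to 12.83 in HGI, against 12.63 to 12.74 in LGI. Of 7 hepatocyte markers 5 lay above 0 and 2 below, Tat (-0.26) and Cps1 (-0.19), and 0 passed. Among the 9435 genes at the floor, 3820 lay above 0. Kupffer cell markers lay above 0 in 9 of 9 cases (median 0.30, mean level 7.72 to 8.59 in HGI, against 7.43 to 8.21 in LGI). Sinusoidal endothelial markers did so in 8 of 8 (median 0.22, 6.45 to 7.09 in HGI, against 6.28 to 6.64 in LGI), and 4 of 4 erythroid markers did (median 0.72, 6.75 to 7.48 in HGI, against 5.81 to 6.68 in LGI). The endothelial marker Pecam1 lay below the floor (mean 3.80), and without it the endothelial count was 7 of 7. Of the Kupffer, endothelial and erythroid markers 0 passed, the nearest being Slc4a1 at 2.25 (adjusted p = 0.0625). The part of these markers in the P450 differences was not tested. Stellate (median 0.01), biliary (0.02), lymphocyte (0.05) and neutrophil markers (0.01) had 0 past the threshold. The mean level of the neutrophil markers ran from 4.38 to 5.75 in HGI, against 4.46 to 7.54 in LGI, where LGI 4 was the highest. In whole liver, fewer cells of a type and less RNA per cell cannot be told apart. As a sign of RNA quality, the Gapdh 3' minus 5' difference was 0.55 ± 0.28 in HGI and 0.59 ± 0.21 in LGI (SD, n = 5 each; two-sided exact permutation p = 0.762). That of Actb was 1.71 ± 0.30 in HGI and 1.88 ± 0.39 in LGI (two-sided exact permutation p = 0.421). LGI 4 had the highest Actb value of the 10 arrays (2.27), and its Gapdh value (0.871) was below that of HGI 5 alone (0.987).

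LGI 4 differed from the other LGI mice in P450 genes of most subfamilies. It was the lowest of its diet for 31 of the 43 genes and the highest for 10, so it was at an end of the range for 95.3%, against 62.3% over all genes at the floor. It lay more than 1 log2 below the mean of the other 4 LGI mice for 8 P450 genes and more than 1 above it for 4, together 27.9%, against 3.17% of all genes at the floor. Among the low ones, Cyp4f14 read 9.22 in LGI 4, against 10.71 to 10.94 in the other LGI mice, and Cyp2c23 read 10.06 in LGI 4, against 11.29 to 11.66. Among the high ones, Cyp3a13 read 10.48 in LGI 4, against 9.20 to 9.40 in the other LGI mice, and Cyp2c55 read 8.30, against 5.64 to 6.04. Cyp3a11, Cyp2c29 and Cyp4v3 were not low in this mouse (13.60, 13.94 and 9.98).

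**Figure D3:**
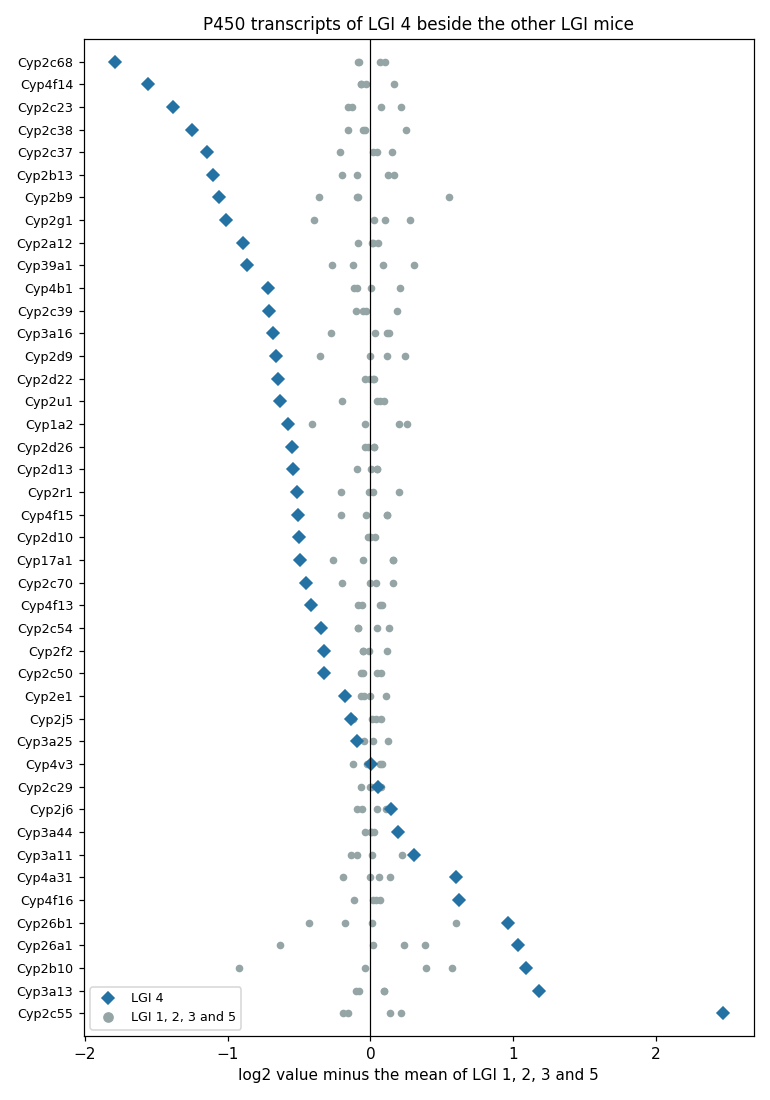
Log2 value minus the mean of LGI 1, 2, 3 and 5 (x axis) for the 43 P450 genes (y axis, sorted), with LGI 4 as blue diamonds and the other LGI mice as grey points. LGI 4 runs from -1.79 at Cyp2c68 to 2.47 at Cyp2c55, and lies outside the grey points for 41 of the 43 genes.

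Other listed genes of LGI 4, chosen after their values were seen, also stood apart. The neutrophil and acute-response marker S100a8 read 8.92 in LGI 4, against 3.95 to 4.28 in the other LGI mice, and S100a9 read 9.31, against 5.40 to 5.75. Ngp, a defining granule gene of neutrophils, read 4.39, against 3.91 to 4.07. Cux2, a factor of female-predominant liver expression, read 4.90 in LGI 4, against 7.35 to 7.51 in the other LGI mice, and Bcl6, a repressor in growth hormone signalling, read 7.68, against 5.34 to 6.34. Cyp7a1, which starts bile acid synthesis, read 6.83, against 10.29 to 11.53. The part of these, and of the Actb and Gapdh values above, in the P450 values of LGI 4 was not tested. HGI 1 was the lowest of its diet for 60.5% of the P450 genes, against 61.0% of all genes at the floor.

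**Figure D4:**
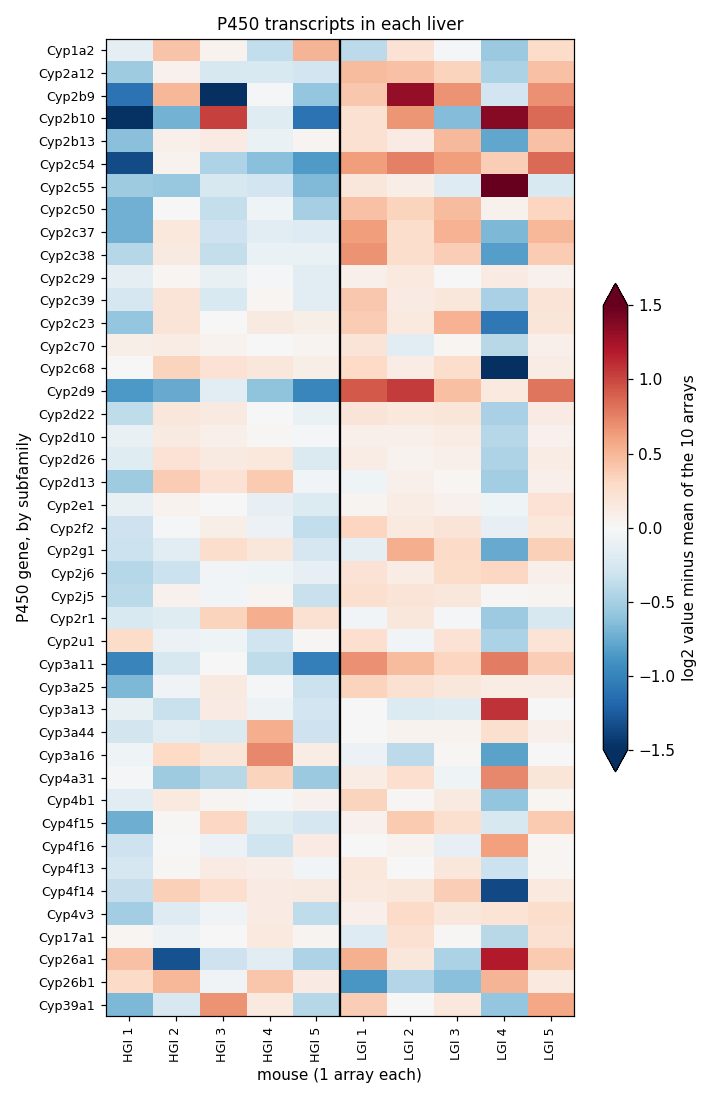
Log2 value of each P450 gene (rows, by subfamily) in each mouse (columns, HGI left and LGI right) minus that gene's mean over the 10 arrays; red is higher, blue is lower, and colours stop at 1.5 log2 either way. LGI 4 differs from the other LGI mice in both directions, and the median over the 43 genes is lowest in HGI 1 and LGI 4 (-0.32 each).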

How the data were processed

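Liver RNA of 10 mice (5 HGI, 5 LGI) was measured on expression arrays, 1 per mouse. The authors deposited log2 expression values per probe set; per the submitters' processing notes, R 2.6.1 and RMA were used, and no genome build was given in the sources used here. Of 45101 probe sets, 64 controls were left out and 45037 were tested. Symbols came from the platform annotation, matched by gene ID to a RefSeq table (34945 probe sets with 1 symbol, 932 with several, 0 symbols changed).

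The diets were compared by limma (3.58.1, under R 4.3.3) as HGI minus LGI, without covariates, with Benjamini-Hochberg adjustment over all probe sets. RMA pulls arrays to 1 distribution, so a shift shared by all genes would not be seen. The number of arrays limits the precision. The fit was run on simulated data with known changes and independent noise. No array stood apart there, so that run cannot speak for arrays such as LGI 4 and HGI 1. Family prefixes were read as family numbers. Genes given for every mouse were those past the threshold, the 10 of smallest p and the smallest p of each subfamily; Cyp2c55, Cyp2c68 and Cyp2d10 were added after their values were seen. From lists, up to 3 genes of smallest p among those at the floor are named unless said otherwise. Alb and the named list genes below the floor are exceptions. Members and lists (12 of genes, 8 of cell markers) were chosen with earlier results of these data known. Promoters came from RefSeq (GRCm38.p6). Alternatives were normalization, signal filters, variance model, array weights, probe set choice, member floor, a replicate block and leaving out arrays.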

Additional observations from a re-analysis of the deposited data

Results flagged for a closer look

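In groups of 5 mice, a value was listed here where its gap to the nearest mouse exceeded Dixon's 95% limit, as a part of the group's range, which chance passes in about 1 in 20 groups. LGI 4 was such a value for 15 of the 43 P450 genes (34.9%, against 7.58% of all genes at the floor). It was the lowest of its diet for Cyp2c68 (11.25), Cyp4f14 (9.22), Cyp2c23 (10.06), Cyp2c37 (7.72), Cyp2c38 (9.75), Cyp2a12 (9.87) and Cyp2b13 (5.97). It was also the lowest for Cyp2d10 (12.40), Cyp2d13 (8.18), Cyp2d22 (9.88) and Cyp2d26 (11.96), which makes all Cyp2d genes kept except Cyp2d9. It was the highest of its diet for Cyp2c55 (8.30), Cyp3a13 (10.48), Cyp3a44 (10.16) and Cyp4f16 (6.05). Among HGI mice, HGI 1 was alone at the low end for Cyp2c23 (10.56) and HGI 4 alone at the high end for Cyp3a44 (10.47).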

How the results depend on the processing

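The median of the 43 P450 genes stayed below 0 under all 23 alternatives (-0.30 to -0.14). So did those of Cyp2b (-1.08 to -0.51), Cyp2c, Cyp3a and Cyp4f, while that of Cyp2d crossed 0 (-0.07 to 0.08). The Cyp3a median moved to -0.0848 without HGI 1 and LGI 4, and lay between -0.36 and -0.13 with single arrays left out. The number of P450 genes called lower was 2. It was 1 with median centring (Cyp2d9), 1 without probe sets marked as shared (Cyp2c54, since that of Cyp2d9 is so marked), and between 0 and 3 with single arrays left out. With a replicate block the number called lower was 1 (Cyp2c54). The number called higher was 0 under every alternative run with limma, with 2 genes higher at an unadjusted p under 0.05. Same-numbered mice did not deviate together (correlations -0.05 to 0.07), and no HGI mouse correlated best with the LGI mouse of its number. The labels do not say what the number marks. Such correlations cannot show whether same-numbered mice shared a litter or a batch. The probe sets called over the whole table were 29, with 64 under array weights, 63 after quantile normalization again, 17 under median centring (76.5% higher in HGI, against 58.6%), 58 without HGI 1 and LGI 4, and 5 to 49 with single arrays left out. Some counts were added after seeing the data. Without HGI 1 and LGI 4, 35 P450 differences lay below 0 (81.4%, against 48.6% of all genes at the floor). Lower at an unadjusted p under 0.05 were 20 (46.5%, against 6.29%), and the groups were apart for 11 (25.6%, against 4.55%). With 1 of these arrays left out those counts were 28 to 37, 11 to 19 and 6 to 11. The shares of all genes at the floor were then 47.7% to 60.5%, 5.69% to 8.30% and 2.73% to 4.14%. Cyp17a1 turned to -0.0049 under array weights, -0.0465 without HGI 1 and LGI 4, and -0.0465 to 0.12 with single arrays left out. Cyp4b1 turned to -0.0062, -0.0701, and -0.11 to 0.12 in the same order, and Cyp2u1 lay between -0.19 and 0.0067 with single arrays left out. The causes were not tested.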
